A study of Homo sapiens with 12 samples.

Results

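The release and refilling of intracellular calcium stores was followed through 10 genes in HD-MB03, a line of human medulloblastoma cells in which the MYC gene is amplified, under entinostat, an inhibitor of class I histone deacetylases. The genes were FKBP1A and FKBP1B, the ryanodine receptor genes RYR1, RYR2 and RYR3, the inositol trisphosphate receptor genes ITPR1, ITPR2 and ITPR3, and the pump genes ATP2A2 and ATP2B1. A probe set, the group of short probes that reports on a transcript, was taken as a member where its annotated symbol, current or former, was one of these genes and no other. The genes were chosen with earlier results of these data known, while the rule itself used no measured value. By this rule, the 10 genes of 19775 on the array carried 29 probe sets of 54613. A further probe set lists FKBP1B together with MFSD2B and is described apart from them.

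Calcium is held in the endoplasmic reticulum at a far higher concentration than in the cytosol, and its release is a signal in most cells. Inositol trisphosphate receptors open when surface receptors activate phospholipase C, and ryanodine receptors, best known from muscle, open on calcium itself or on contact with the voltage sensor of the cell surface. The immunophilins FKBP12 and FKBP12.6, encoded by FKBP1A and FKBP1B, bind the ryanodine receptors and also the drug FK506. The pump SERCA2, encoded by ATP2A2, returns calcium to the store, and PMCA1, encoded by ATP2B1, expels it across the plasma membrane. In the cerebellum, where medulloblastoma arises, ITPR1 is best known for its very high level in Purkinje cells.

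Cells were grown with 1 µM entinostat or with DMSO, the solvent, for 24 h or 48 h, and total RNA of 3 biological replicates in each of the 4 groups was hybridised to Affymetrix Human Genome U133 Plus 2.0 arrays, 12 in all. The labels call the DMSO samples untreated in another field. All the groups are of this single line, so the spread between replicates is that of separate cultures and not of tumours. As deposited, the intensities are linear and still hold a background. The lowest was 36.7, and array medians lay between 80.64 and 81.8. A change in a dim probe set is made smaller by this background. A probe set is called dim here where its mean log2 intensity was under 7, which is an intensity of 128, in every group. Of the member probe sets 12 were dim (41.4%), against 63.6% of all probe sets. No array stood apart, since the SD of an array's log2 deviations from its group mean lay between 0.0907 and 0.106. Intensities of different probe sets depend on their probes and are not compared with each other.

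The line's label was checked on markers. The summed intensity of 7 genes of group 3 medulloblastoma was 20781 to 23661 in DMSO and 18246 to 19548 in entinostat at 24 h. At 48 h it was 23503 to 25117 and 22053 to 22628. The sum was thus lower in the treated arrays at both times, and its part in the results was not tested. It is weighted to the bright markers and does not describe the set as a whole. Of the 7, 0 were called higher and 2 lower at 24 h, and 1 and 2 at 48 h. At 48 h mean IMPG2 went from 3417 in DMSO to 1199 in entinostat, and MYC from 11546 to 12998. MYC (10900 to 13272), OTX2, NRL and IMPG2 were bright, CRX reached 147, and NPR3 and MAB21L2 were dim. Under entinostat the log2 fold changes of IMPG2 were -2.02 and -1.52 (limma, adjusted p = 8.58e-07 and 8.06e-06), OTX2 fell by 0.22 at 24 h (adjusted p = 0.0239), CRX fell by 0.44 at 48 h (adjusted p = 0.0265), and MYC rose by 0.17 at 48 h (adjusted p = 0.0113). Of 4 measured muscle markers, MYH7 and MYL2 were dim and not called at either time, CKM was dim and rose by 0.57 on the log2 scale at 48 h (limma, adjusted p = 0.00444), and ACTN2, between 176 and 463, rose by 0.69 at 24 h and 0.54 at 48 h (adjusted p = 0.0135 and 0.0429). The summed intensity of these 4 was 389 to 522 in DMSO and 509 to 717 in entinostat at 24 h, and 388 to 437 and 505 to 594 at 48 h, and its part in the results on the ryanodine receptors was not tested. The Purkinje cell markers CALB1, PCP2 and CA8 were dim in all groups, with a sum of 178 to 235 over the arrays, although PCP2 rose by 0.33 on that scale at 24 h (adjusted p = 0.0216). Astrocyte, leukocyte and fibroblast markers were dim as well.

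Between entinostat and DMSO, changes are log2 fold changes from limma fitted to all 12 arrays with a coefficient per group. They are called where the p-value, adjusted by Benjamini-Hochberg over all 54613 probe sets, was under 0.05. At 24 h, 11 of the 29 member probe sets were higher and 1 lower, against a background of 12.8% higher and 12.4% lower among all probe sets. At 48 h, 12 were higher and 1 lower, against 12.9% and 13.2%. Since the members were chosen with earlier results of these data known, these counts describe them and are no independent support. The median log2 fold change of the members was 0.05 at 24 h and 0.09 at 48 h, where that of all probe sets was -0.03 and -0.02. The higher calls belonged to FKBP1B, ITPR1, ITPR2 and ATP2B1, and to 1 dim probe set of ITPR3 at 48 h, so the probe sets called together mostly report on the same few genes. In RNA from whole cultures, a change in the RNA per cell and a change in the share of cells that hold it cannot be told apart.

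**Figure D1:**
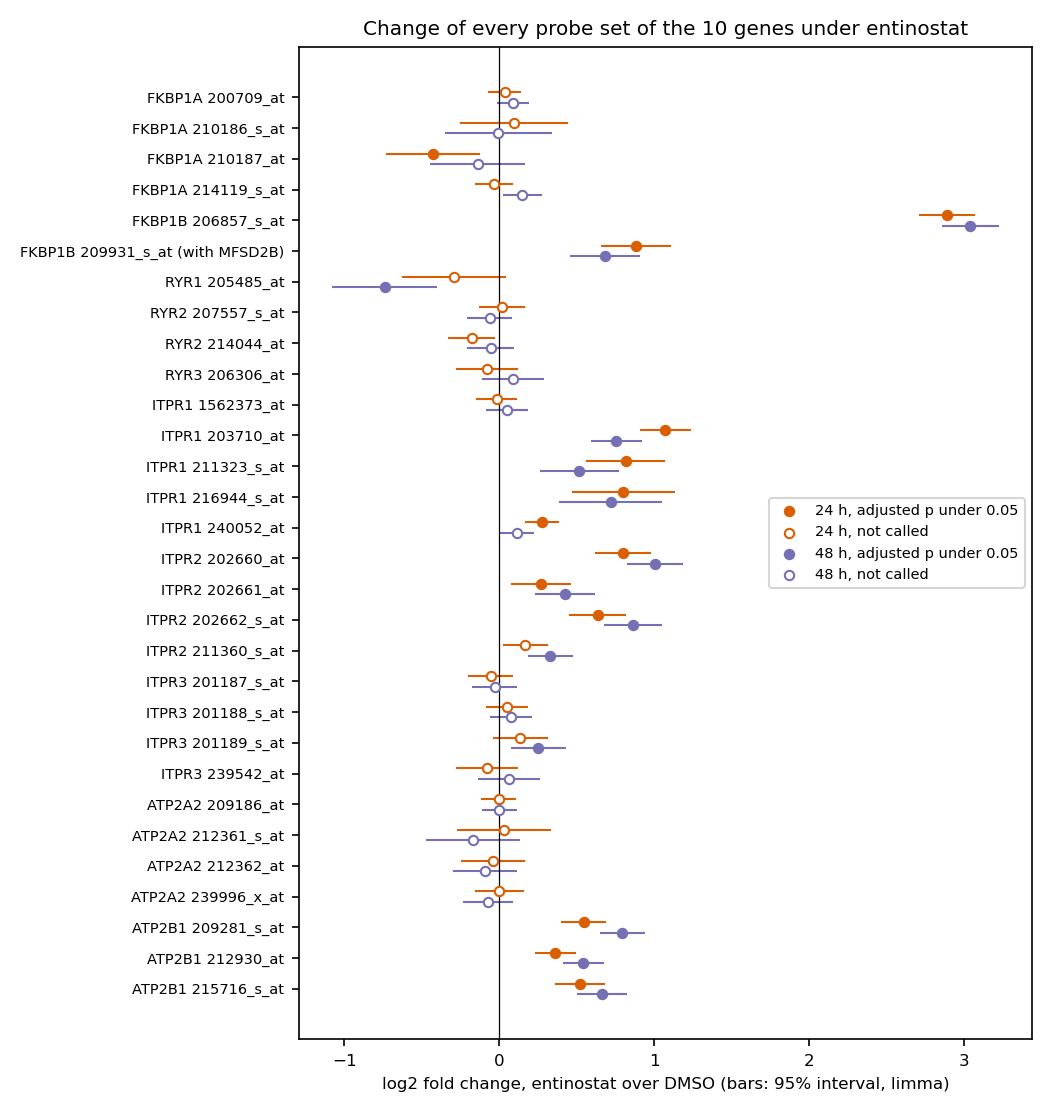
Log2 fold change of entinostat over DMSO (x axis) for the 29 probe sets of the 10 genes and the probe set shared with MFSD2B, at 24 h (orange) and 48 h (purple), with 95% intervals from limma; filled points have an adjusted p under 0.05. FKBP1B lies near 3, the main probe sets of ITPR1, ITPR2 and ATP2B1 lie between 0.36 and 1.07, RYR1 lies at -0.74 at 48 h, and the probe sets of ATP2A2 lie around 0.

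The largest change of any member was that of FKBP1B. Its probe set 206857_s_at, where the ending _s_at marks probes that can bind several transcripts, had intensities of 103, 102 and 94.5 in the 3 DMSO arrays at 24 h. In entinostat at 24 h they were 774, 750 and 699. Every treated array was thus far above each control array of that time, with means of 741 ± 38.3 and 99.8 ± 4.66 (SD, n = 3). At 48 h the DMSO arrays read 85.9, 83.4 and 72.6 and the entinostat arrays 636, 742 and 614. The groups again lay far apart. The mean log2 intensity was 6.64 in DMSO and 9.53 in entinostat at 24 h, and 6.33 and 9.37 at 48 h.

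For FKBP1B the log2 fold changes were 2.89 and 3.04 (standard error 0.08 each, limma adjusted p = 1e-09 and 7.83e-10), or 7.42-fold and 8.23-fold in the intensities as deposited. Ranked by these log2 fold changes, it was 11th of 54613 probe sets at 24 h and 12th at 48 h. The DMSO means lay close to the array medians, at percentiles 60.2 and 49.7 of all probe sets, and were not shown to be above background, so these folds may understate the change of the RNA. Over 8 alternatives to the processing they ranged from 2.78 to 3.35 and from 2.90 to 3.65, highest where a background of 30 was subtracted from every value. The second probe set, 209931_s_at, which also lists MFSD2B, a lipid transporter gene, was at 74.3 ± 8.62 in DMSO and 137 ± 17.7 in entinostat at 24 h. It rose by 0.88 and 0.68 on the log2 scale (adjusted p = 4.2e-05 and 0.000299), the latter 1.05 with 30 subtracted, and which of its genes it reports cannot be told apart.

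FKBP1A, whose product FKBP12 is the abundant and widely expressed relative, was bright and nearly flat. Its probe set 200709_at had intensities of 1008, 1066 and 1011 in DMSO and 1035, 1048 and 1076 in entinostat at 24 h, which overlap. At 48 h it was at 973, 1006 and 974 in DMSO and at 1051, 1015 and 1079 in entinostat. All treated arrays at 48 h were higher than the controls, but by little. The log2 fold changes were 0.03 (95% interval -0.07 to 0.14) and 0.09 (-0.01 to 0.20), neither called by limma (adjusted p = 0.685 and 0.216). The intervals of FKBP1B, 2.71 to 3.07 and 2.86 to 3.22, lay far from these.

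Among the other FKBP1A probe sets, 214119_s_at went from 714 ± 10.1 to 793 ± 37.7 at 48 h, a log2 fold change of 0.15 (adjusted p = 0.0764). It was called when only probe sets with a mean log2 of at least 7 were tested (0.15, adjusted p = 0.042) and when replicate 2 of entinostat at 48 h was left out (0.19, adjusted p = 0.0487). The probe set 210186_s_at held a high array in 2 groups, 796 in entinostat at 24 h and 784 in DMSO at 48 h, where its other arrays lay between 495 and 627, and it was not called. The weak probe set 210187_at was lower in entinostat at 24 h, at 113 ± 14.3 against 151 ± 8.44, a log2 fold change of -0.43 (adjusted p = 0.0418). Refits with a single array removed gave -0.53 to -0.36, and in 6 of 12 the call was lost, namely without any of the DMSO arrays at 24 h, without replicate 1 or 3 of entinostat at 24 h, or without replicate 1 of DMSO at 48 h (adjusted p up to 0.142). At 48 h the probe set had -0.14 (adjusted p = 0.562). The 4 probe sets of FKBP1A hence did not move together, and their Pearson r over the 12 arrays ranged from -0.48 to 0.63.

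The promoters of this pair and of ITPR1, a gene that also rose, are shown because the probe sets of FKBP1B and FKBP1A differ so much in their change. The 250 bases before the annotated start were taken from RefSeq, build GRCh38.p14, at chr2:24049491-24049740 on the plus strand for FKBP1B, chr20:1393055-1393304 on the minus strand for FKBP1A and chr3:4493098-4493347 on the plus strand for ITPR1. They are written 5′ to 3′ along the gene, with each GC box (GGGCGG, or CCGCCC on the other strand) in capitals:
FKBP1B: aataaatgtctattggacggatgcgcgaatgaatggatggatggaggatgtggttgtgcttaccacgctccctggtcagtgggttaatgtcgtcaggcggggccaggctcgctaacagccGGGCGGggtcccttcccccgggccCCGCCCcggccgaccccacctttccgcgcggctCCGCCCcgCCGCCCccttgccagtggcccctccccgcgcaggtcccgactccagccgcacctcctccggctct
FKBP1A: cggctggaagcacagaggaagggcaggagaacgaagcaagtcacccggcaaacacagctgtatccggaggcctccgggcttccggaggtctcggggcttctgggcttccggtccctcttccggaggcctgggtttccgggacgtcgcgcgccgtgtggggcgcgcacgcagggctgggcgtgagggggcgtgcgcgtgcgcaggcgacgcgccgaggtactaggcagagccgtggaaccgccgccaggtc
ITPR1: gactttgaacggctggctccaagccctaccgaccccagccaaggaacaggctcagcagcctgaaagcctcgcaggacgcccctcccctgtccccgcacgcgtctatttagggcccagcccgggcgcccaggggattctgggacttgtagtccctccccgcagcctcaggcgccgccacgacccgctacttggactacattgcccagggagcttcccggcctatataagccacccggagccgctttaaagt

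The FKBP1B window held 4 GC boxes, the windows of FKBP1A and ITPR1 none. A GC box was present in 42.6% of 35116 windows of the same length, and 4 or more in 7.63%. The share of G and C was 68.4% in FKBP1B, 70.8% in FKBP1A and 64.8% in ITPR1, against a median of 58% over all windows. A CCAAT box (CCAAT or ATTGG) was found in the FKBP1B window, as in 32% of all, and the letters TATAAA or TTTATA in none of the 3, where 10.7% of all held them, which does not speak of other forms of the TATA box. In all, 9 of the 10 genes matched, with 11 windows, of which 8 held a GC box, 3 a CCAAT box and 0 the letters TATAAA or TTTATA. ITPR2 had no entry. RYR1 held 1 GC box and RYR2, RYR3 and ITPR3 held 2 each. For ATP2A2 there were windows with 0 and 4, and for ATP2B1 with 2 and 4. Of the genes that rose, ITPR1 thus had no box, while FKBP1B and ATP2B1 had it in every window. ATP2A2, which stayed level, had windows with and without it. Any part of the box in the changes was not tested. These matches describe the sequence only, and no binding was measured.

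**Figure D2:**
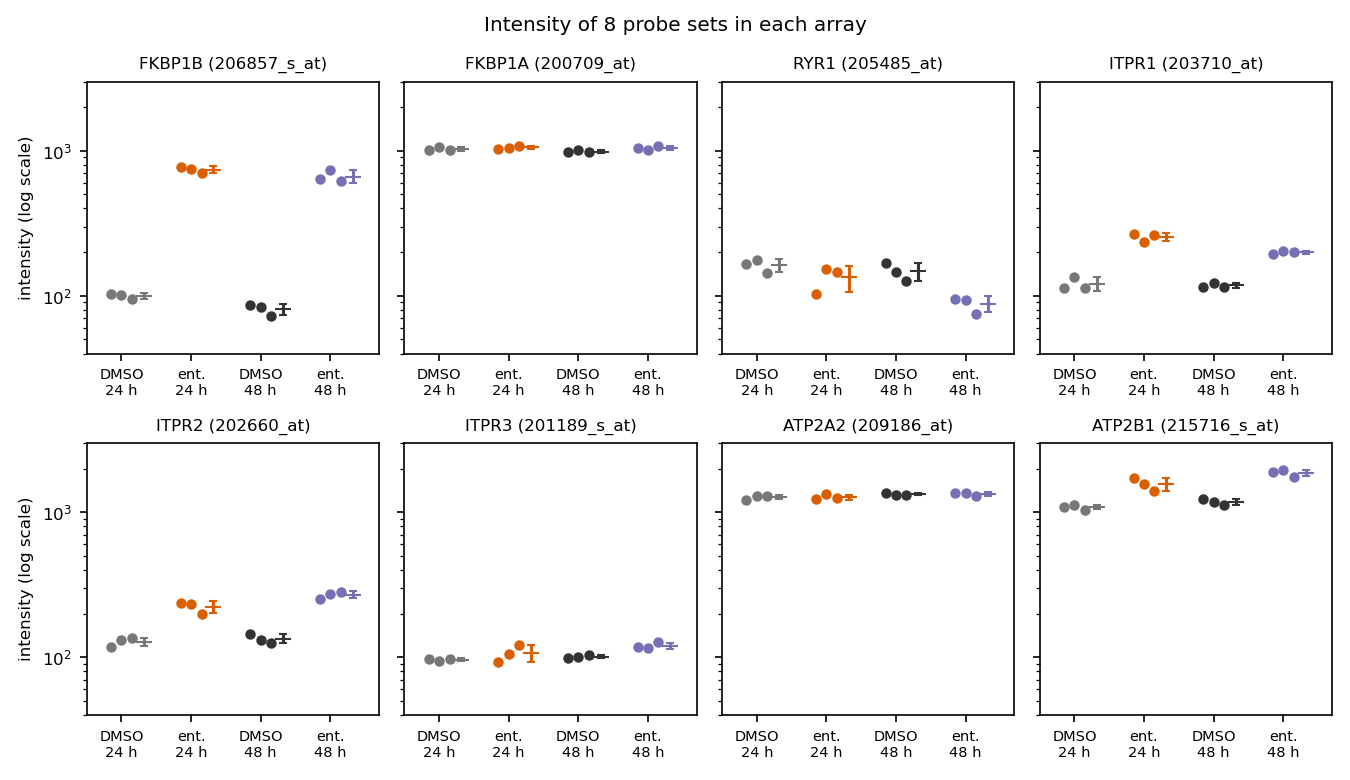
Intensity (y axis, log scale) of 1 probe set for each of 8 of the genes in every array, by group; points are the 3 arrays of a group, and the bar beside them is the mean ± SD (n = 3). FKBP1B separates by treatment at both times, ITPR1, ITPR2 and ATP2B1 separate by less, RYR1 is lowest in entinostat at 48 h, and FKBP1A and ATP2A2 stay level; heights are not comparable between panels.

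Of the ryanodine receptors, the only probe set that was not dim was that of RYR1, the channel of skeletal muscle. 205485_at had intensities of 166, 176 and 144 in DMSO and 103, 153 and 147 in entinostat at 24 h, so these groups overlapped. At 48 h DMSO arrays were at 169, 147 and 127, and entinostat arrays at 95.3, 94.2 and 75.1. Here every treated array was below every control. The log2 fold change was -0.29 at 24 h (limma, adjusted p = 0.212) and -0.74 at 48 h (standard error 0.15, adjusted p = 0.00303), which was 993rd from the lowest of all probe sets. The difference between the times, -0.45 as the interaction of treatment and time, was not called (adjusted p = 0.434). With entinostat alone RYR1 was lower at 48 h than at 24 h by a log2 difference of -0.59 (adjusted p = 0.0392), a call lost in 2 of 8 alternatives (subtraction of 30, -0.82, and a separate fit, -0.59) and in 7 of 12 refits, which gave -0.77 to -0.48 with adjusted p up to 0.149. The 7 left out replicate 1 of DMSO at 24 h, replicate 2 of DMSO at 48 h, replicate 2 or 3 of entinostat at 24 h, or any array of entinostat at 48 h.

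RYR2, the cardiac form, and RYR3, the form first found in brain, were dim throughout. Over the 12 arrays the RYR2 probe sets lay between 57.0 and 66.8 (207557_s_at) and between 41.2 and 52.4 (214044_at), and the RYR3 probe set between 44.1 and 56.8. These lie close to the lowest values of the array. The largest of their changes, -0.18 for 214044_at at 24 h, had an adjusted p of 0.0892 (0.0126 with -0.25 when replicate 3 of entinostat was left out), and none was called at either time. So low an intensity does not show that the genes were silent, and any background left in the values makes their changes smaller. FKBP1B thus rose in cells whose arrays gave no clear signal for RYR2, the channel its product is best known to bind, and a weak one for RYR1.

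The inositol trisphosphate receptors differed among themselves. ITPR1, the form richest in neurons, rose at both times. Its probe set 203710_at was at 113, 136 and 114 in DMSO and at 265, 235 and 261 in entinostat at 24 h. At 48 h the values were 114, 123 and 116 against 193, 204 and 199. The treated arrays lay above the controls with no overlap, and those at 48 h lay below those at 24 h. The log2 fold changes were 1.07 at 24 h and 0.76 at 48 h (standard error 0.08 each, limma adjusted p = 6.25e-07 and 9.55e-06).

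Of the other 4 ITPR1 probe sets, 2 were called higher at both times, 1 at 24 h only and 1 at neither. They share their target RNA and are not independent evidence. 211323_s_at rose from 84.4 ± 14.9 to 148 ± 14.1 at 24 h and from 88.9 ± 8.39 to 127 ± 9.05 at 48 h, with log2 fold changes of 0.82 and 0.52 (adjusted p = 0.000193 and 0.005). For 216944_s_at they were 0.80 and 0.72 (adjusted p = 0.00168 and 0.00339). The dim probe set 240052_at rose by 0.28 at 24 h and had 0.11 at 48 h (adjusted p = 0.00139 and 0.141), with 0.56 at 24 h when 30 was subtracted, and 1562373_at, near 50 in all groups, was not called. Over the 12 arrays, Pearson's r among the 3 probe sets called at both times was between 0.93 and 0.96, a description that reflects the shared difference between groups.

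ITPR2, the form of liver, heart and glia with a high affinity for its ligand, rose as well. 202660_at had intensities of 118, 131 and 135 in DMSO and 238, 231 and 200 in entinostat at 24 h. At 48 h they were 145, 132 and 126 against 254, 271 and 284. All treated arrays were above all controls, and in contrast with ITPR1 the treated arrays at 48 h were above those at 24 h. The log2 fold change was 0.80 at 24 h and 1.00 at 48 h (limma, adjusted p = 1.32e-05 and 1.73e-06). 202662_s_at gave 0.64 and 0.86 (adjusted p = 0.000116 and 8.04e-06).

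The remaining probe sets of ITPR2 were dim. 202661_at rose by 0.27 and 0.42 (adjusted p = 0.0433 and 0.003), and by 0.42 and 0.64 with 30 subtracted. The call at 24 h was lost, at 0.25 to 0.29 with adjusted p up to 0.118, in 7 of 12 refits, without any array of that time or without replicate 3 of entinostat at 48 h. 211360_s_at had 0.17 at 24 h and rose by 0.33 at 48 h (adjusted p = 0.0933 and 0.00253), and without replicate 3 of DMSO at 24 h the former was 0.22 (adjusted p = 0.0493). In both, the entinostat arrays lay above the DMSO arrays at each time, so all 4 probe sets of the gene gave the same sign. As with ITPR1, they share their target RNA and are not independent evidence.

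All 4 probe sets of ITPR3, the form of many epithelia, were dim, with intensities between 50.8 and 127 over all arrays. 201189_s_at read 98.4, 100 and 103 in DMSO at 48 h and 118, 115 and 127 in entinostat. It was higher by 0.25 (limma, adjusted p = 0.0379), a call lost when 30 was subtracted (0.35, adjusted p = 0.0505) and in 8 of 12 refits, at 0.21 to 0.28 with adjusted p up to 0.133. These were the refits without any array of 48 h, without replicate 1 of DMSO at 24 h or without replicate 2 of entinostat at 24 h. At 24 h it had 0.14 (adjusted p = 0.275), and 0.23 (adjusted p = 0.0408) without replicate 1 of entinostat. The other 3 gave log2 fold changes between -0.08 and 0.08, none called. ITPR3 hence shows at most a small change here, in 1 of its 4 probe sets.

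The pumps went separate ways. ATP2A2, whose product SERCA2 refills the store, was bright and level. 209186_at was at 1223, 1302 and 1301 in DMSO and 1225, 1329 and 1260 in entinostat at 24 h, and at 1366, 1324 and 1322 against 1362, 1362 and 1291 at 48 h. The groups overlapped at both times, and the 95% intervals of the log2 fold change were -0.12 to 0.11 and -0.11 to 0.11. The values of 212361_s_at scattered more, from 963 to 1545, and its intervals were -0.27 to 0.34 and -0.48 to 0.13. None of the 4 ATP2A2 probe sets was called at either time, with adjusted p between 0.455 and 0.997.

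ATP2B1, the housekeeping pump of the plasma membrane, rose in every probe set. These share their target RNA and are not independent evidence. 215716_s_at had intensities of 1088, 1114 and 1043 in DMSO and 1708, 1563 and 1398 in entinostat at 24 h. At 48 h the values were 1242, 1171 and 1118 against 1882, 1953 and 1756. The treated arrays at 48 h were the highest of all, and none overlapped with another group. The log2 fold change was 0.52 at 24 h and 0.66 at 48 h (limma, adjusted p = 0.0002 and 2.5e-05). 209281_s_at, at 859 ± 23.1 in DMSO and 1255 ± 76.5 in entinostat at 24 h and at 976 ± 79.3 and 1691 ± 47.7 at 48 h, rose by 0.54 and 0.80 (adjusted p = 5.06e-05 and 1.91e-06). 212930_at rose by 0.36 and 0.54 (adjusted p = 0.000653 and 2.28e-05).

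These changes were also set against time. Between DMSO at 48 h and DMSO at 24 h no member probe set was called in either direction by limma, where 0.203% of all probe sets were called higher and 0.156% lower. At an unadjusted p under 0.05, for which no share of all probe sets was counted, there were 3 of 29. FKBP1B was among them, with -0.31 (adjusted p = 0.149), as the DMSO arrays at 48 h all read below those at 24 h. The other 2 were ATP2B1 probe sets, at 0.18 and 0.24 (adjusted p = 0.305 and 0.115). With entinostat, 2 probe sets were higher at 48 h than at 24 h and 3 lower, against 3.31% and 3.88% of all.

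Those 2 were the ATP2B1 probe sets 209281_s_at (0.43, adjusted p = 0.00234) and 212930_at (0.42, adjusted p = 0.00157), and the third, 215716_s_at, had 0.26 (adjusted p = 0.0549), which passed the threshold in 5 of 8 alternatives (0.26 to 0.28) and without replicate 1 of entinostat at 24 h (0.33, adjusted p = 0.026). The lower ones were RYR1, ITPR1 203710_at at -0.35 (adjusted p = 0.0162) and the dim ITPR1 240052_at at -0.18 (adjusted p = 0.04995). The former was lost without replicate 1 or 3 of entinostat at 24 h or replicate 1 of entinostat at 48 h (-0.33 to -0.32, adjusted p up to 0.0615), and the latter in all 12 refits (-0.21 to -0.14, adjusted p up to 0.172), while it was -0.37 with 30 subtracted. ITPR2 202660_at had 0.28 (adjusted p = 0.0661, or 0.0351 when only probe sets with a mean log2 of at least 7 were tested), and FKBP1B -0.16 (adjusted p = 0.333).

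Whether the effect of entinostat itself differed between the times was tested by the interaction. No member was called, where 0.562% of all probe sets were called higher and 0.646% lower. At an unadjusted p under 0.05, for which no share of all probe sets was counted, there were 4 of 29. These were ITPR1 203710_at (-0.32, adjusted p = 0.212) and 240052_at (-0.16, adjusted p = 0.373), ATP2B1 209281_s_at (0.25, adjusted p = 0.263) and FKBP1A 214119_s_at (0.18, adjusted p = 0.362). For FKBP1B it was 0.15, with a 95% interval of -0.11 to 0.41. The opposite leanings of ITPR1 and of ITPR2 and ATP2B1 with time are thus values of each gene that did not pass the test of the difference.

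**Figure D3:**
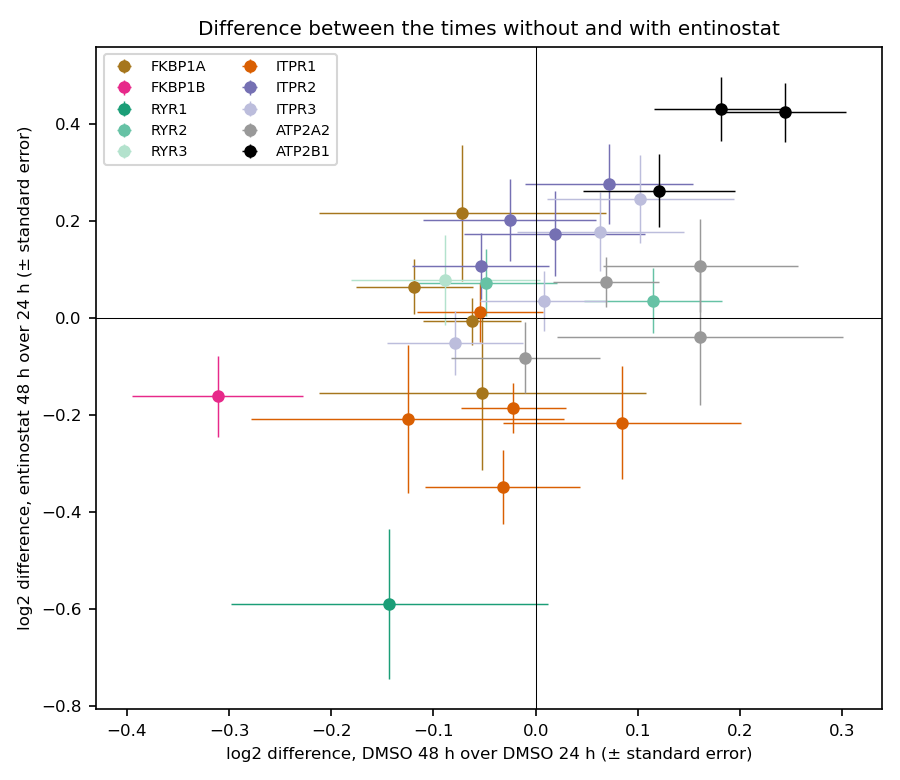
Log2 difference between 48 h and 24 h in DMSO (x axis) and in entinostat (y axis) for the 29 member probe sets, coloured by gene, with standard errors from limma. ATP2B1 lies highest on both axes, FKBP1B is farthest left at -0.31, and RYR1 is lowest at -0.59; both axes share no arrays.

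Since FKBP1B was the only member called with a log2 fold change of at least 1 at both times, the genes most like it in pattern were sought. Over the 12 arrays and 19772 other genes, each by its brightest probe set, the closest were NID2, a basement membrane protein gene, with a Pearson r of 0.998, MEST, an imprinted gene of the hydrolase fold, with 0.998, and WDR54, a WD repeat gene, with 0.997. Their log2 fold changes were 1.62, 2.15 and 1.43 at 24 h and 1.67, 2.20 and 1.38 at 48 h. The arrays form separate groups by treatment, so this measure mostly ranks how cleanly a gene follows them.

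The further genes of calcium handling were followed in 8 lists, in which 117 of 126 genes were measured by a probe set of a single symbol. Each gene was represented by its brightest probe set, and p-values were adjusted over 19775 genes. At 24 h, 38 of the 117 were higher and 15 lower, against 18.9% and 15.8% of all genes. At 48 h, 29 were higher and 20 lower, against 18% and 17.4%. The medians were 0.04 and 0.03, and those of all genes -0.02 at both times. The lists too were chosen with earlier results of these data known, so these counts are a description. The same shares of all genes apply to the counts of each list below. No test was made of the lists as such, and the medians lay close to 0.

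Store-operated entry was the list with the highest median, 0.36 at 24 h and 0.28 at 48 h. It holds the sensors of the emptied store, the surface channels they open, and the further genes SARAF and STIMATE. Of its 7 genes 5 were higher at each time. Among the 5 was SARAF, neither sensor nor channel, which rose by 0.18 at each time (limma, adjusted p = 0.0166 and 0.0194). The channel gene ORAI1 rose by 0.73 and 0.67 (adjusted p = 0.00011 and 0.00022), ORAI2 by 0.40 and 0.48, and the dim ORAI3 by 0.39 and 0.28. Another probe set of ORAI2 gave 0.88 at 24 h. The sensor STIM2 rose by 0.36 and 0.46 (adjusted p = 0.0274 and 0.00709), and STIM1 had 0.16 and 0.20 (adjusted p = 0.316 and 0.195). The call of STIM2 at 24 h was lost without any DMSO array of that time (0.35 to 0.37) or without replicate 1 of entinostat (0.25, adjusted p = 0.118). STIMATE, a regulator of the sensors, was the gene that was lower at 48 h, with -0.14 (adjusted p = 0.0386).

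Of 22 genes listed for inositol trisphosphate and cyclic ADP-ribose metabolism, 9 were higher and 1 lower at 24 h, and 7 and 2 at 48 h. The phospholipase C genes PLCB1 and PLCG2, whose enzymes make the messenger inositol trisphosphate, rose by 1.06 and 0.96 and by 1.00 and 1.02. INPP1, which acts later in the recycling of inositol phosphates, rose by 0.75 and 0.87. INPP5A, whose enzyme removes a phosphate from the messenger and so ends the signal, fell by 0.54 at 24 h and 0.91 at 48 h (adjusted p = 3.2e-05 and 3.72e-07). Its mean intensity went from 845 to 583 and from 857 to 457.

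Partners of the release channels moved both ways. Of 24 measured, 6 were higher and 2 lower at 24 h, and 5 and 3 at 48 h. SRI, the gene of sorcin, which binds ryanodine receptors, fell by 0.44 and 0.59, and NCS1, a neuronal calcium sensor, by 0.55 and 0.53. HOMER3, a scaffold gene, rose by 0.68 and 0.53. ERP44, which acts on ITPR1 protein from within the store, rose by 0.37 and 0.49. The calls of SRI at both times and of ERP44 at 24 h were lost when probe sets ending in _s_at or _x_at were avoided, with -0.31, -0.40 and 0.14, and ERP44 read 0.32 at 48 h there.

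Other pumps and exchangers, 15 measured, had 4 higher and 0 lower at 24 h, and 3 and 2 at 48 h. ATP2B4, a relative of ATP2B1, rose by 0.25 and 0.48 (adjusted p = 0.0344 and 0.000688). Its call at 24 h was lost without replicate 1 of DMSO (0.15, adjusted p = 0.136), without replicate 2 or 3 of entinostat (0.24 and 0.23), with 30 subtracted (adjusted p = 0.0508) and in a separate fit (adjusted p = 0.0736), while the probe set of the strongest treatment effect gave 0.45. The exchanger genes SLC8A2, of the neuronal plasma membrane, and SLC8B1, of mitochondria, were dim and rose by 0.45 and 0.40 and by 0.46 and 0.42, SLC8A2 by 0.69 at 24 h with 30 subtracted. Of 9 pump regulators and leak channels, 3 were higher at each time and 1 lower at 24 h. TMBIM6, also known as Bax inhibitor 1, rose by 0.46 and 0.45, TMCO1, a channel against store overload, by 0.28 and 0.40, and TMEM38B, a counter-ion channel, by 0.33 and 0.24, the latter lost at 0.16 with a probe set that ends in neither _s_at nor _x_at.

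Buffers and chaperones of the store had 5 of 15 genes higher and 5 lower at 24 h, and 2 and 5 at 48 h. NUCB2, the gene of a calcium-binding nucleobindin, rose by 1.28 and 1.07. RCN1, a reticulocalbin of the store, fell by 0.86 and 0.78, its relative RCN3 rose by 0.65 and 0.45, and SDF4, a Golgi relative, fell by 0.49 and 0.44. Within this family of EF-hand proteins the members thus moved in opposite directions.

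Of 11 genes of mitochondrial calcium uptake, entinostat raised 4 and lowered 3 at 24 h, and 2 and 3 at 48 h. MCUB, a dampening subunit of the uniporter, rose by 1.07 and 0.90, and its regulator MICU2 by 0.49 and 0.40. LETM1, an ion exchanger gene of the inner membrane, fell by 0.40 and 0.35. The outer membrane channel gene VDAC1 fell by 0.29 and by 0.17 (limma, adjusted p = 0.00233 and 0.0426). The latter call was lost in 9 of 12 refits (-0.18 to -0.14, adjusted p up to 0.147). It was also lost with 30 subtracted (-0.17, adjusted p = 0.0781) and in a separate fit (-0.17, adjusted p = 0.0648). Both calls were lost with a probe set ending in neither _s_at nor _x_at (-0.15 and -0.23). The list's median was -0.09 at 24 h and 0.13 at 48 h, so it changed sign although several genes kept theirs.

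The other FK506-binding proteins were compared with FKBP1B as its family. Of 14 measured, 2 were higher and 3 lower at 24 h, and 2 and 4 at 48 h, with medians of 0.02 and -0.01. FKBP5, a co-chaperone known as a target of steroid receptors, rose by 0.65 and 0.50, and FKBP7, of the endoplasmic reticulum, by 0.59 and 0.67, the former 0.37 with another probe set. FKBP9, of the same compartment, fell by 0.40 and 0.77, and FKBP4, a partner of Hsp90, by 0.25 and 0.49, calls lost at -0.11 and -0.14 with the probe set that does not end in _s_at or _x_at. The largest rise in these 14, 0.67, was far under that of FKBP1B.

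Of the 117 genes, 3 passed the test of the interaction, all downward, against 1.18% of all genes upward and 1.83% downward. They were INPP5A at -0.37 and, named after their values were seen, HSP90B1 at -0.41 and FKBP3 at -0.32 (adjusted p = 0.0495, 0.0291 and 0.0193). HSP90B1 is a chaperone of the store, and FKBP3 a nuclear member of the FK506-binding family. The call of HSP90B1 was lost in 9 of 12 refits, that of INPP5A in 11 and that of FKBP3 in the refit without replicate 3 of DMSO at 48 h, and FKBP3 read 0.071 (adjusted p = 0.912) with a probe set ending in neither _s_at nor _x_at. With the probe set of the strongest treatment effect HSP90B1 read -0.018 (adjusted p = 0.961), and with 30 subtracted the calls of all 3 were lost.

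**Figure D4:**
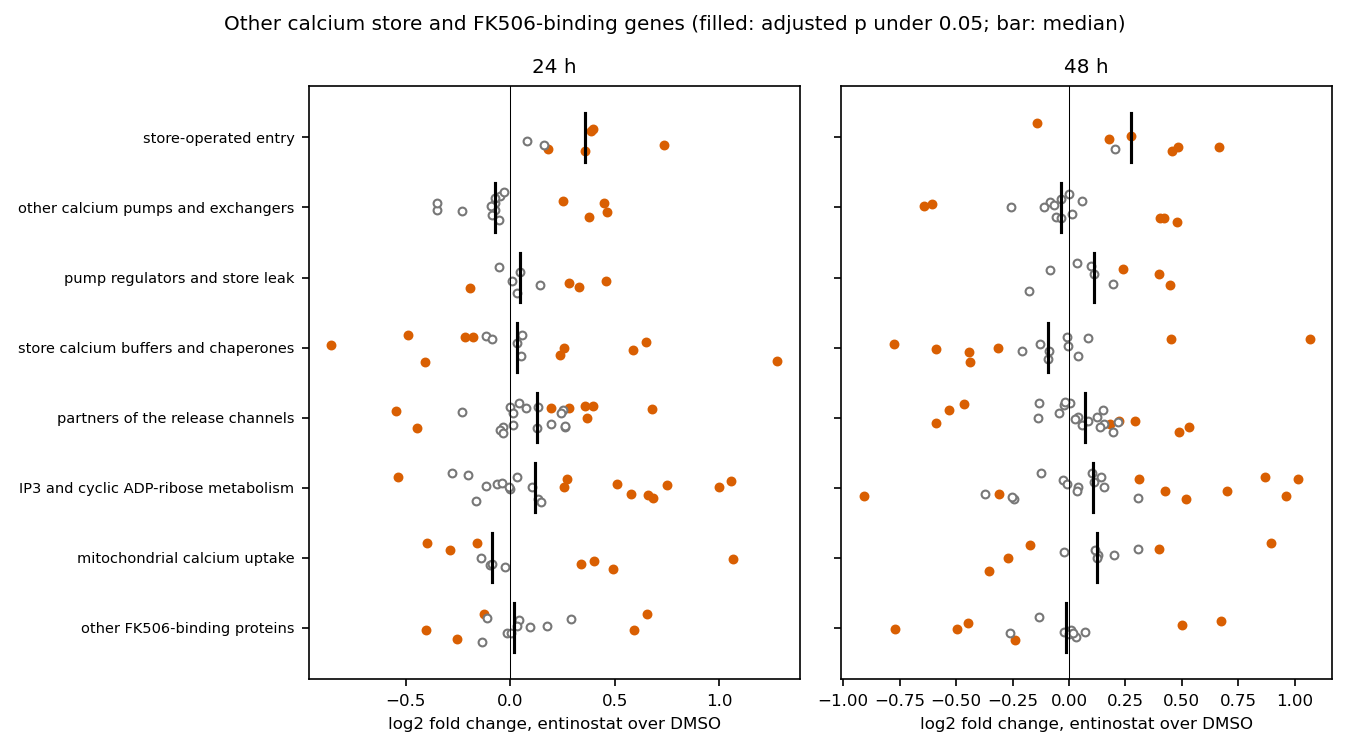
Log2 fold change of entinostat over DMSO (x axis) of the 117 measured genes by list, at 24 h (left) and 48 h (right); filled points have an adjusted p under 0.05 (limma) and the black bar is the list's median. The store-operated entry list lies to the right of 0 at 24 h, with a median of 0.36, while the medians of the others lie between -0.09 and 0.13.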

How the data were processed

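According to the labels and the methods, the authors extracted total RNA of 3 biological replicates per group with a column kit and had it hybridised at a core facility, and they name GCRMA normalization and a log2 transformation. The deposited table holds intensity values on a linear scale with a background level left, and whether the authors analysed this same export is not stated. For GCRMA, no version was given in the sources used here. No detection calls were used, and the number of arrays limits the precision.

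Here log2 was taken, 62 control probe sets were left out (2 cells were empty), and limma 3.58.1 in R 4.3.3 was fitted with 1 coefficient per group to all 12 arrays, with Benjamini-Hochberg adjustment over 54613 probe sets and a threshold of 0.05. Symbols came from the platform annotation: 41091 probe sets carry 1 symbol, of which 41037 matched RefSeq by gene number, 1801 carry several and 11721 none. For the lists, the probe set of the highest mean stood for a gene. From each list, up to 4 genes called the same way at both times with the largest mean change are named, and for each member called at both times with an absolute log2 fold change of at least 1 the 3 genes with the highest r. The members and the lists were chosen with earlier results of these data known. The 8 alternatives were a filter at a mean log2 of 7, centred arrays, quantile normalization, normexp with an offset of 50, subtraction of 30, a trended and robust prior, separate fits and a replicate block, and 2 other choices of probe set were tried for the lists. Each array was left out in turn, in 12 refits. The procedure was tested on simulated data. The study's other assays were not analysed here.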

Additional observations from a re-analysis of the deposited data

Results flagged for a closer look

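INPP5A was the named gene whose response to entinostat differed between the times. Its log2 fold change was -0.54 at 24 h and -0.91 at 48 h, and the interaction of treatment and time was -0.37 (limma, adjusted p = 0.0495 over 19775 genes). The mean intensity of its probe set was 845 in DMSO and 583 in entinostat at 24 h, and 857 and 457 at 48 h, so the DMSO means were close and the entinostat means were not. The call was lost in 4 of 9 alternatives and in 11 of 12 refits without 1 array, where the value ranged with the alternatives from -0.44 to -0.32 and the adjusted p reached 0.113.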

How the results depend on the processing

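Among the member probe sets no call turned its direction under any of the 8 alternatives or 12 refits. With only probe sets of a mean log2 of at least 7 tested, 4 rather than 2 were higher at 48 h than at 24 h in entinostat. With 30 subtracted, 0 rather than 1 was lower at 24 h against DMSO, and with separate fits 1 rather than 3 was lower between the entinostat times. In the refits the first of these lower counts ranged from 0 to 1 and the second from 0 to 2. FKBP3 reversed, with an interaction of 0.0709 under a probe set that does not end in _s_at or _x_at. Of 4273 values of single probe sets and genes, 106 lost and 13 gained a call. The 4273 include values not called in the main fit, which cannot lose a call, so this is no rate of loss among the calls. The causes were not tested.

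Replicate numbers were shared by the groups. The correlation of deviations over same-numbered arrays was -0.06 to 0.20, above 0.1 in 4 of 18 pairs. Its median was 0.06, against -0.01 for other pairs, so a weak tie between same-numbered arrays may be present. With the number as a replicate block, 11 member probe sets were higher and 1 lower at 24 h and 12 and 1 at 48 h, as without it, while between the entinostat times 3 were higher and 2 lower. Changes in dim probe sets, among them all those of RYR2, RYR3 and ITPR3, are limited by the background left in the values.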
